A study of Homo sapiens with 2 samples.

Results

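Long noncoding RNAs that host small nucleolar RNAs (snoRNAs) were examined in 22Rv1, a line of human prostate cancer cells that resists castration. The cells carried either a control vector (shCON) or a hairpin that targets EIF3F (shEIF3F); EIF3F encodes subunit f of eIF3, a factor that starts translation. Each group had 1 RNA-seq library and a single hairpin was used, so no value below has a replicate check, an error or a p-value. The genes were chosen by name: every gene called SNHG with a number, plus GAS5, ZFAS1, DANCR, EPB41L4A-AS1 and TUG1. That gave 30 of the 57326 gene symbols analysed. Of these, 28 had a mean above 0, 26 had a mean of at least 1 TPM, called measured below, and SNHG18 and SNHG27 were listed at 0 in both libraries. TPM corrects read numbers for transcript length and library total, and without the read numbers the depth of these values is unknown.

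snoRNAs guide chemical modification of other RNAs. Box C/D snoRNAs direct ribose methylation of ribosomal RNA, box H/ACA snoRNAs direct its pseudouridylation, and small Cajal body RNAs do the same for spliceosomal RNAs. Most human snoRNAs are cut from the introns of a longer transcript, the host. Many hosts begin with a C followed by a run of pyrimidines, the terminal oligopyrimidine (TOP) motif that also starts the mRNAs of ribosomal proteins and is known for translational control through mTOR. Spliced host RNAs that hold no long reading frame, such as GAS5, are known to be degraded by nonsense-mediated decay once ribosomes translate them.

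The label fits most of the genes by position. In RefSeq and GENCODE, 27 of the 30 genes held at least 1 annotated snoRNA or small Cajal body RNA, 144 different ones in all. None was found in TUG1, SNHG27 or SNHG28, so TUG1, a long noncoding RNA known for other reasons, is kept here by the rule of choice alone. The hosted RNAs themselves were almost unmeasured. Of the 130 that the table lists, 127 stood at 0 in both libraries. The others were SCARNA16 (host SNHG20) at 7.84 TPM, SNORA71B (host SNHG17) at 2.76 TPM and SNORA73A (host SNHG3) at 1.46 TPM in shCON, each listed at 0 in shEIF3F. The values below are therefore those of the host transcripts, not of the snoRNAs.

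The first 25 bases of annotated transcripts are shown for hosts that the results turn on, because the TOP motif is read from the first base. Sequences and positions are from GENCODE release 29 (GRCh38), and capitals mark the run of C and T from the first base. Where a gene has several transcripts that start with the motif, the commonest such start is given.
GAS5, chr1:173867965-173867989, minus strand: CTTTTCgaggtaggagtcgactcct
SNHG16, chr17:76557769-76557793, plus strand: CTTTTCgaggtcggccgcgtggctg
SNHG19, chr16:2155334-2155358, minus strand: CTTTTCggggtcgagtccgaggggg
SNHG29, chr17:16439037-16439061, plus strand: CTTTTCattcccgttgttatggagg
SNHG5, chr6:85678709-85678733, minus strand: CTTTTacgtcggccttcgcgagcgt
ZFAS1, chr20:49278642-49278666, plus strand: CTTTCgcgtctgcggtgcccggagt
SNHG8, chr4:118278758-118278782, plus strand: CTTTCacattcgggaagcgtcggga
SNHG4, chr5:139274102-139274126, plus strand: CCTTTCCCCTCCggcctctgccggt
For comparison, these are starts of hosts with no such transcript.
DANCR, chr4:52712404-52712428, plus strand: agagtcttcccgggattggctgcgg
EPB41L4A-AS1, chr5:112160526-112160550, plus strand: tgtcgggtcccaaaatacgtggtct
SNHG15, chr7:44986613-44986637, minus strand: agacctgtactccgtactccgtact

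The printed starts of GAS5, SNHG16, SNHG19 and SNHG29 shared the same first 6 bases. They belong to 6 of 29 annotated transcripts of GAS5, 2 of 8 of SNHG16, 1 of 1 of SNHG19 and 5 of 30 of SNHG29. At least 1 transcript with a TOP start (C followed by at least 4 C or T bases, read on the transcript strand) was annotated for 15 of the 30 genes, and for 14 of the 26 measured ones (53.8%). The share was 16.7% of all measured genes, 7.93% of other long noncoding RNA genes and 83.5% of ribosomal protein genes. The chance of such a start grows with the number of transcripts, whose median was 8 per measured host gene (5 over all 30), 7 over all measured genes, 2 for other long noncoding RNA genes and 9 for ribosomal proteins. Per transcript the share was 13.1% for the measured host genes, 2.67% for all measured genes, 2.56% for other long noncoding RNA genes and 20.4% for ribosomal proteins. These are annotated starts, which need not be the ones used in 22Rv1 cells.

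In the RefSeq promoter table (250 bases before to 50 after 1 start per gene, GRCh38.p14), 26 of the genes had an entry. The motif began exactly at the start in 6 of them (23.1%: SNHG4, SNHG5, SNHG12, SNHG18, SNHG19 and ZFAS1), against 4.07% of all 35116 promoters. It began within 10 bases of the start in 15 (57.7%), against 33.5% of all. GAS5 was not among those 15. The letters TATAA, on the gene strand 40 to 21 bases before the start, were also in 6 entries (23.1%: SNHG5, SNHG7, SNHG8, SNHG12, SNHG19 and ZFAS1), against 3.77% of all and 2.50% of those of measured genes; that motif was looked for after the sequences had been seen. The MYC E-box CACGTG, a palindrome and so the same on both strands, was in the windows of SNHG7 and TUG1 (7.69%), against 7.26% of all. The stretch from 45 bases before to 40 bases from the start is printed for 3 hosts that hold both TATAA and the TOP motif, with both in capitals.
ZFAS1, chr20:49278597-49278681, plus strand: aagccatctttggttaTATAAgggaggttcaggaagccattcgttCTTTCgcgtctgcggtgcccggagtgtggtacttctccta
SNHG5, chr6:85678694-85678778, minus strand: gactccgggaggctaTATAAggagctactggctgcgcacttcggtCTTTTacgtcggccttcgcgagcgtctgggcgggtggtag
SNHG19, chr16:2155319-2155403, minus strand: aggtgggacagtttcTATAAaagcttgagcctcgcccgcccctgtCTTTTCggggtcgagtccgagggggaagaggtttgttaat
Of these 3 hosts, ZFAS1 was the highest in ratio of all the hosts, SNHG5 was almost level and SNHG19 was the lowest, as given next. SNHG12, which also holds both motifs and is not printed, was within 2-fold (log2 ratio 0.27).

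The knockdown was seen in the target itself, where EIF3F had 991 TPM with shCON but 17.01 TPM with shEIF3F. Log2 ratios below are log2((shEIF3F TPM + 1) / (shCON TPM + 1)), and 1 or more, or -1 or less, is called at least 2-fold, a rule of size and not a test. Among the 26 measured host genes, 4 were at least 2-fold higher (15.4%), against 8.43% of all 13302 measured genes and 18.2% of the 1311 other long noncoding RNA genes. A further 6 were at least 2-fold lower (23.1%), against 25.5% and 18.9%. The median log2 ratio was 0.082 for the host genes, -0.36 for all genes and -0.036 for other long noncoding RNAs. Both counts depended on scaling. After the median of all genes was subtracted from each ratio (centring), 8 host genes were at least 2-fold higher and 2 lower, where 14.7% and 16.0% of all genes were. Of the 1311 other long noncoding RNA genes, 356 were then at least 2-fold higher and 163 lower. Ranked by level the host genes kept much of their order, with a Spearman correlation of 0.947 between the libraries over the 26 genes.

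**Figure D1:**
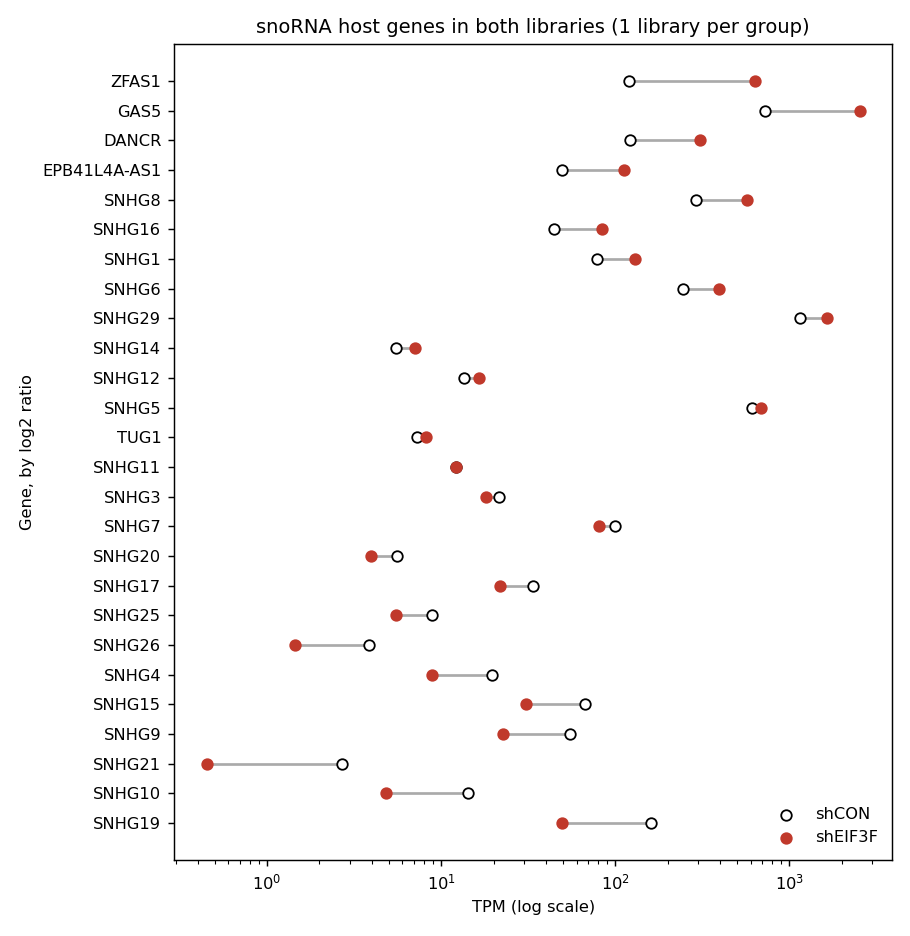
TPM of the 26 measured host genes in the shCON library (open circles) and the shEIF3F library (filled circles), on a log axis and ordered by log2 ratio. ZFAS1 stood at 120.0 and 636 TPM at the top, SNHG19 at 160 and 49.5 TPM at the bottom, and SNHG11 was level.

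Together the 26 host genes held 3969 TPM in shCON and 7393 TPM in shEIF3F, or 0.400% and 0.744% of each library, 1.86 times as much (log2 ratio of the sums 0.90). GAS5 alone made up 53.0% of the net gain of 3424 TPM, and without it the log2 ratio of the sums was 0.58. GAS5, ZFAS1 and SNHG29 together made up 82.1%. By contrast 14 genes had more TPM in shEIF3F and 12 had less. The difference in the sum thus lay mostly in a few abundant hosts.

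Hosts of box C/D snoRNAs had the higher values, with a median log2 ratio of 0.59 over 10 measured genes, 8 of them above 0. ZFAS1, which hosts SNORD12, SNORD12B and SNORD12C, had 120.0 TPM with shCON and 636 TPM with shEIF3F, 5.30 times as much (log2 ratio 2.40). GAS5, named for its accumulation in growth-arrested cells, stood at 724 and 2538 TPM, 3.51 times as much (1.81). It holds 10 box C/D snoRNAs among the 11 annotated in it and was the most abundant host in shEIF3F, where SNHG29 had been in shCON. These were the box C/D hosts past 2-fold on the higher side.

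Other box C/D hosts were higher by less than 2-fold. SNHG16, the host of SNORD1A, SNORD1B and SNORD1C, was at 44.5 and 84.0 TPM (log2 ratio 0.90). SNHG1, which carries 8 box C/D snoRNAs from SNORD22 to SNORD31, was at 78.7 and 130 TPM (0.72). SNHG6, the host of SNORD87, was at 245 and 395 TPM (0.69). After the median of all genes was subtracted from each ratio (centring), all of these passed 2-fold, at 1.26, 1.07 and 1.04. SNHG29, host of SNORD49A, SNORD49B and SNORD65, was the most abundant host in shCON at 1155 TPM and reached 1636 TPM in shEIF3F (0.50). SNHG5, host of SNORD50A and SNORD50B, was at 610 and 690 TPM (0.18). SNHG14, the very long transcript of the imprinted Prader-Willi region that carries the SNORD115 and SNORD116 clusters, was low at 5.54 and 7.11 TPM (0.31). Among the 3 most abundant box C/D hosts in shCON, GAS5 was thus past 2-fold and SNHG29 and SNHG5 were within it.

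Against these, SNHG19 and SNHG26 were lower. SNHG19, the short host of SNORD60, had 160 TPM with shCON and 49.5 TPM with shEIF3F, 3.23 times less (log2 ratio -1.67), the lowest ratio of all the host genes. Its 1 annotated transcript begins with the same 6 bases as the printed GAS5 start, which 6 of 29 annotated GAS5 transcripts have. SNHG19 was the only one of 9 host genes averaging at least 100 TPM that was lower in shEIF3F. SNHG26, host of SNORD93, was at 3.84 and 1.44 TPM (-0.99), near the minimum level, so its ratio moves with the pseudocount, from -1.36 with 0.1 TPM to -0.46 with 5 TPM.

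Hosts of box H/ACA snoRNAs were spread in both directions, with a median log2 ratio of -0.27 over 10 genes, 4 of them above 0. DANCR, host of SNORA26 and a long noncoding RNA known for opposing differentiation, had 122 TPM with shCON and 305 TPM with shEIF3F, 2.50 times as much (log2 ratio 1.32). EPB41L4A-AS1, host of SNORA13, was at 49.7 and 113 TPM, 2.27 times as much (1.17). SNHG8, host of SNORA24, was just under 2-fold at 289 and 573 TPM (0.98). None of the annotated DANCR or EPB41L4A-AS1 transcripts starts with the TOP motif, whereas 1 of 5 SNHG8 transcripts does.

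On the lower side were SNHG9, SNHG15 and SNHG4. SNHG9, host of SNORA78, had 55.0 TPM with shCON and 22.6 TPM with shEIF3F (log2 ratio -1.25). SNHG15, host of SNORA9, was at 67.2 and 30.7 TPM (-1.11), and SNHG4, host of SNORA74A and SNORA74D, was at 19.7 and 8.84 TPM (-1.07). All of them were within 2-fold after centring, at -0.89, -0.75 and -0.71. The printed SNHG4 start has a TOP run of 12 bases. SNHG17, SNHG7, SNHG3 and SNHG11 differed by less than 2-fold. SNHG17, which hosts SNORA71A to SNORA71D, was at 33.8 and 21.9 TPM (-0.60). SNHG7, host of SNORA17A and SNORA17B, was at 99.4 and 81.1 TPM (-0.29). SNHG3, host of SNORA73A and SNORA73B, was at 21.6 and 18.0 TPM (-0.25), and SNHG11, host of SNORA60 and SNORA71E, was level at 12.2 TPM in both (0.0087).

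Among hosts of small Cajal body RNAs, all at low levels, 2 of 3 measured genes were at least 2-fold lower, and 1 of 3 after centring. Of all measured genes, 25.5% were at least 2-fold lower, and 16.0% after centring. SNHG10, host of SCARNA13, was at 14.2 and 4.85 TPM (log2 ratio -1.38). SNHG21, host of SCARNA15, was at 2.71 and 0.45 TPM (-1.36), and SNHG20, host of SCARNA16, at 5.57 and 3.94 TPM (-0.41). The SNHG21 ratio moves with the pseudocount, from -2.35 with 0.1 TPM to -0.50 with 5 TPM. The median of the 3 measured genes was -1.36, and SNHG22, host of SCARNA17, was below the minimum at 0.63 and 0.59 TPM. Hosts of both snoRNA classes were within 2-fold: SNHG12, with SNORD99 and 3 box H/ACA snoRNAs, was at 13.6 and 16.6 TPM (0.27), and SNHG25, with SNORD104 and SNORA50C, at 8.88 and 5.49 TPM (-0.61). TUG1 was at 7.25 and 8.19 TPM (0.16), and SNHG28 was nearly absent at 0.06 and 0.19 TPM.

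**Figure D2:**
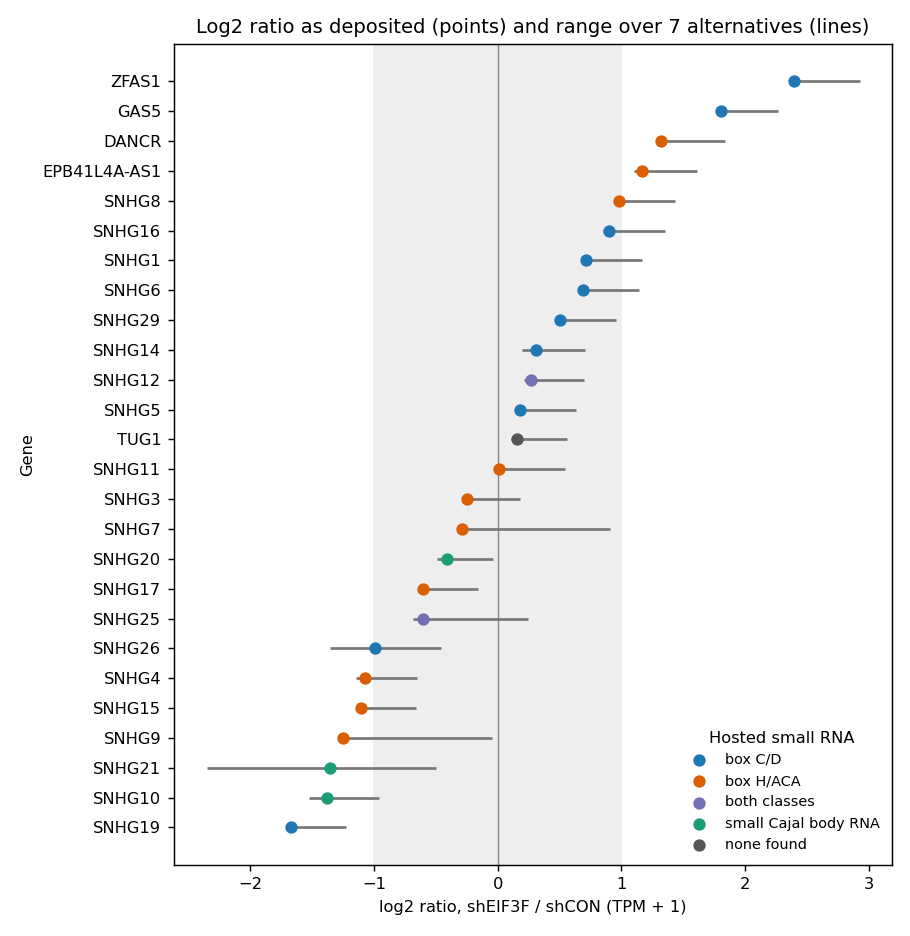
Log2 ratio (x axis, TPM + 1) of the 26 host genes as deposited (points, coloured by the class of hosted small RNA), with lines over the lowest and highest value under 7 alternative settings; the grey band is less than 2-fold. ZFAS1, GAS5, DANCR and EPB41L4A-AS1 lie above the band and SNHG19 below it along the whole line, whereas the line of SNHG9 nearly reaches 0.

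The more abundant host genes were more often higher in shEIF3F. Of the 9 averaging at least 100 TPM, 8 had a log2 ratio above 0, with a median of 0.72, whereas 31.3% of the 1048 genes of that level did over the whole table, with a median of -0.48. Of the 10 host genes between 10 and 100 TPM, 4 were above 0 (median -0.27), and of the 7 below 10 TPM, 2 were (median -0.61). A mean over both libraries holds the difference itself, and SNHG1, at 78.7 TPM in shCON, was among the 9 only through its shEIF3F value. With classes by shCON level alone, chosen after the data were seen, 7 of 8 host genes at 100 TPM or above had a log2 ratio above 0 (median 0.84), against 269 of 1219 genes over the whole table (median -0.76). Between 10 and 100 TPM it was 5 of 12 host genes (median -0.27), and below 10 TPM it was 2 of 6 (median -0.51). The Spearman correlation of the log2 ratio with the shCON level was 0.458 across the 26 host genes and -0.346 across all genes, all read from the same libraries and given as a description. Of the summed TPM, GAS5 held 18.2% with shCON and 34.3% with shEIF3F, SNHG29 29.1% and 22.1%, and SNHG19 4.04% and 0.670%.

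**Figure D3:**
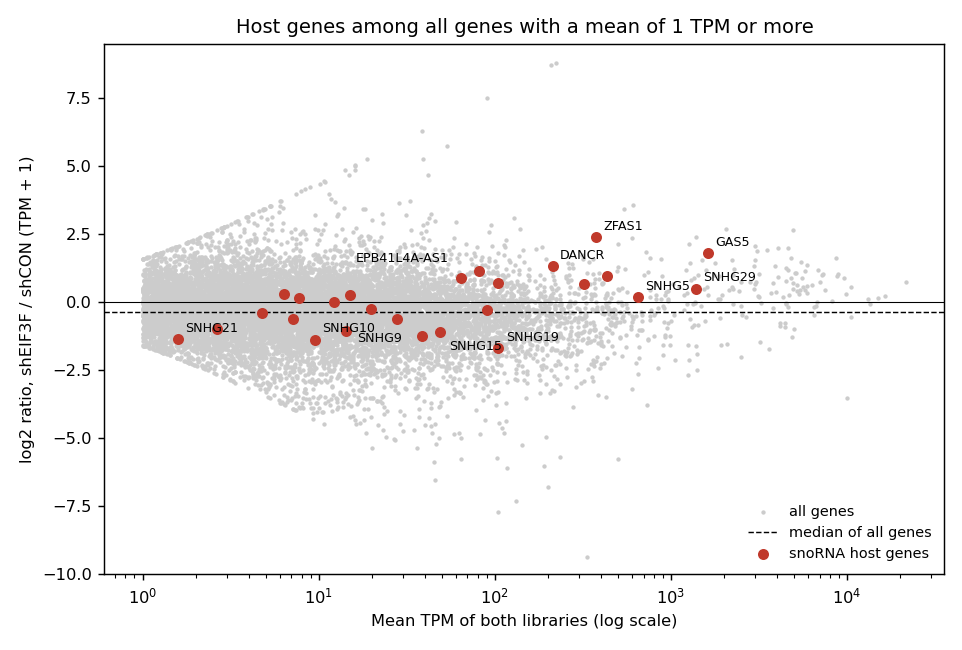
Log2 ratio (y axis, TPM + 1) against mean TPM (x axis, log scale) for the 13302 measured genes (grey) and the 26 host genes (red); the dashed line is the median of all genes at -0.36. Host genes to the right of 100 TPM lie above 0 except SNHG19, and those to the left lie on both sides.

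The annotated TOP start was set beside the ratios as a description. The 14 measured host genes with a TOP transcript had a median log2 ratio of 0.39, 10 of them above 0, with 2 at least 2-fold higher (GAS5, ZFAS1) and 2 lower (SNHG4, SNHG19). The 12 without one had a median of -0.51, 4 of them above 0, with 2 at least 2-fold higher (DANCR, EPB41L4A-AS1) and 4 lower (SNHG9, SNHG10, SNHG15, SNHG21). Hosts with a TOP transcript were also the more abundant, holding 3503 of the 3969 TPM in shCON, and level and start cannot be told apart in so few genes.

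Transcript GC content and shared exons also bear on single values. Log2 ratios were lower at higher transcript GC content across all genes (Spearman's rho -0.313 over 13234 genes, which are not independent replicates), and the same correlation was -0.228 across the 26 host genes. With that trend removed, SNHG9, whose longest transcript has 66.5% GC, was at -0.050 instead of -1.25, and SNHG7, at 65.9% GC, at 0.91 instead of -0.29. SNHG10 shares 20.1% of its exon bases with GLRX5 on the opposite strand, at 144 and 103 TPM. SNHG7 shares 25.2% with DIPK1B on the opposite strand, at 34.2 and 21.9 TPM. SNHG20 shares 7.56% with SEC14L1 on its own strand, at 11.4 and 7.71 TPM. SNHG3 shares 5.92% with RCC1 on its own strand, at 131 and 148 TPM. EPB41L4A-AS1 shares 49.6% with EPB41L4A on the opposite strand, which was nearly silent at 0.22 and 0.64 TPM. ZFAS1 shares 11.1% with ZNFX1 on the opposite strand, which stood far below it at 3.05 and 5.27 TPM. Whether the authors' counting used strand is not given in the sources used here, and the part of such reads in the results was not tested. Without hosts sharing at least 5% of exon bases with a measured gene, ZFAS1 among them, 21 measured host genes remained. Of those, 3 were at least 2-fold higher (14.3%) and 5 lower (23.8%), against 8.43% and 25.5% of all genes. Their median log2 ratio was 0.18, and that of their sums was 0.84.

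Related genes were counted for comparison, from lists written from general knowledge. Among other mRNAs known to start with the TOP motif, 8 of 15 were at least 2-fold higher and 1 lower, with a median log2 ratio of 1.01. These are 53.3% and 6.67%, against 8.43% and 25.5% of all measured genes. PABPC1, which binds poly(A) tails, was at 470 and 2059 TPM (2.13), and TPT1, a growth-related protein, at 1458 and 5527 TPM (1.92). EEF1A1, which brings tRNAs to the ribosome, was at 4214 and 13021 TPM (1.63). EIF3H, a neighbour of the depleted subunit in the eIF3 complex, was at 158 and 474 TPM (1.58). The host genes, at 0.082, lay between these and all genes (-0.36). The ribosomal protein genes that host snoRNAs had a median of 0.94, with 10 of 24 at least 2-fold higher (41.7%). Those with no listed snoRNA had a median of 0.64, with 16 of 55 higher (29.1%). Neither list had a member at least 2-fold lower, but processed pseudogenes can share the reads of such genes and make single values uncertain.

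Other protein-coding snoRNA hosts went both ways, with 5 of 30 at least 2-fold higher, 8 lower and a median of -0.33, close to that of all genes. These counts are 16.7% and 26.7%, against 8.43% and 25.5% of all measured genes. RACK1, EEF1B2, EEF2 and TPT1 were on this list and on that of other TOP mRNAs, so the lists are not independent. TPT1, also a host of a box H/ACA snoRNA, and the helicase EIF4A2, at 76.3 and 217 TPM (log2 ratio 1.49), were at the top. The nuclear import receptor TNPO2, at 52.8 and 13.8 TPM (-1.86), and the scaffold EIF4G1, at 176 and 63.7 TPM (-1.45), were at the bottom. The paralogues EIF4A1 and EIF4A2, both snoRNA hosts, lay on opposite sides, since EIF4A1 was at 1073 and 409 TPM (-1.39); EIF4A1 was chosen after its values were seen. Of the noncoding hosts under other names, C6orf48, now called SNHG32 and host of SNORD48 and SNORD52, was at 278 and 457 TPM (0.72), like SNHG1, and MEG8 was at 0.49 TPM and listed at 0.

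Of the 8 core proteins that bind snoRNAs, 5 were at least 2-fold lower (62.5%, against 25.5% of all measured genes) and 0 higher, with a median log2 ratio of -1.07. The others were NOP58 at -0.89, GAR1 at -0.57 and SNU13 at -0.14, which was 0.22 after centring. The H/ACA protein NHP2 stood at 1050 and 222 TPM (-2.23). The box C/D proteins NOP56, itself a snoRNA host, and the methyltransferase fibrillarin (FBL) stood at 231 and 90.3 TPM (-1.34) and at 1136 and 476 TPM (-1.25). NOP10, another H/ACA protein, was at 407 and 188 TPM (-1.11), and the pseudouridine synthase DKC1, also at least 2-fold lower, was at 53.8 and 26.04 TPM (-1.02). FBL, NHP2, NOP10, SNU13 and NOP56 had over 100 TPM in shCON, a level at which 40.9% of all genes were at least 2-fold lower. With ratios centred, only NHP2 remained at least 2-fold lower, 1 of 8, where 16.0% of all genes were. The 10 assembly factors had a median of -0.39, with 1 at least 2-fold lower, the ATPase RUVBL2 at 283 and 87.0 TPM (-1.69). The next in size were NOLC1, a nucleolar chaperone of snoRNPs, at 81.4 and 46.5 TPM (-0.80), the cap methyltransferase TGS1 at 4.30 and 2.11 TPM (-0.77) and ZNHIT3 at 69.3 and 48.6 TPM (-0.50). Thus the summed TPM of the host genes and that of the core snoRNP proteins, 3166 TPM in shCON and 1247 TPM in shEIF3F, lay on opposite sides of 0 on the log2 scale, at 0.90 and -1.34.

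Factors of nonsense-mediated decay, the pathway known to degrade spliced host RNAs, were also counted. Of 17, 4 were at least 2-fold lower and 0 higher, with a median log2 ratio of -0.66. That is 23.5% lower, near the 25.5% of all measured genes, so the count does not set these factors apart. SMG5, which recruits decay enzymes, was at 55.4 and 14.7 TPM (-1.85), and RNPS1, a partner of the exon junction complex, at 259 and 96.7 TPM (-1.41). The central helicase UPF1 was at 30.3 and 11.4 TPM (-1.34) and the exon junction helicase EIF4A3 at 140.0 and 64.6 TPM (-1.11). After centring, 2 were at least 2-fold lower, SMG5 at -1.49 and RNPS1 at -1.06. Any part of these factors in the host gene values was not tested.

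Long noncoding RNAs known for other roles served as a further comparison. Of 10 measured, 0 were at least 2-fold higher and 2 lower, with a median log2 ratio of 0.21. The imprinted H19 was at 4.76 and 0.90 TPM (-1.60) and OIP5-AS1 at 19.6 and 6.93 TPM (-1.38). HOTAIRM1 was at 4.55 and 9.10 TPM (0.86), and the nuclear speckle RNA MALAT1 at 22.1 and 38.3 TPM (0.77). None of those 10 reached the ratio of DANCR, the third highest host gene. That holds for this short list only. Among all 1311 other long noncoding RNA genes, 239 (18.2%) were at least 2-fold higher, with ratios up to 5.05.

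**Figure D4:**
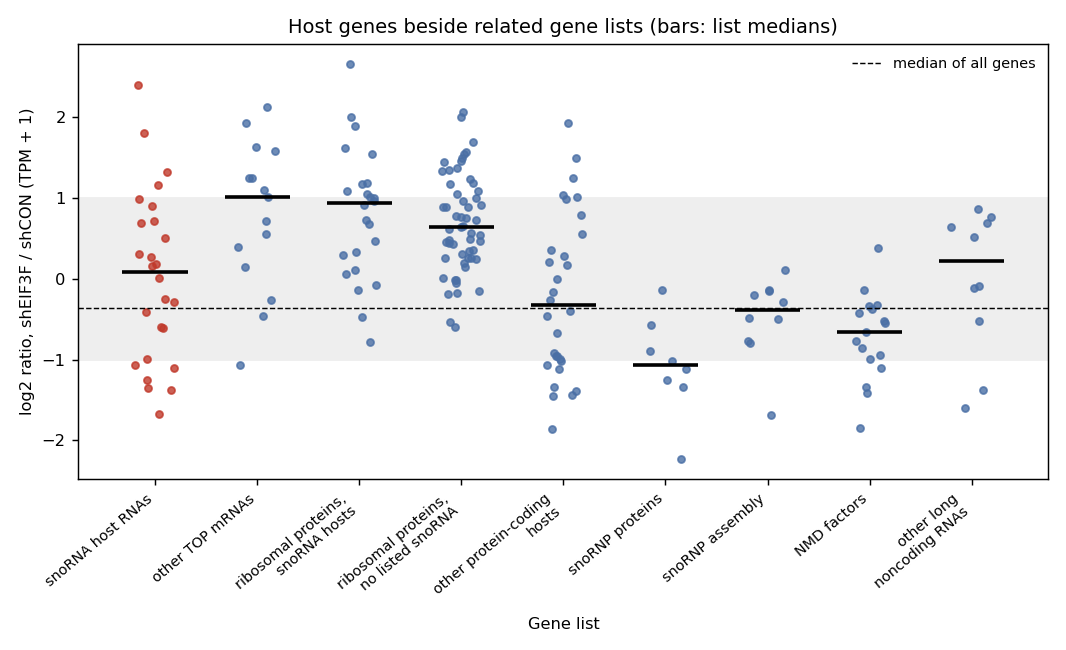
Log2 ratio (y axis, TPM + 1) of each measured gene in the host gene set (red) and in 8 related lists (blue), with bars at the list medians, the dashed line at the median of all genes and the grey band for less than 2-fold. The host genes spread from -1.67 to 2.40 around 0.082, other TOP mRNAs centre on 1.01 and snoRNP proteins on -1.07.

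Prostate luminal markers were present in both libraries, where all 7 were measured and summed to 862 and 930 TPM. Of these, KLK3 (prostate-specific antigen) was at 9.71 and 1.94 TPM, and the keratin KRT8 at 301 and 347 TPM. The endothelial markers CDH5, VWF and KDR were listed at 0 in both libraries and PECAM1 was at 0.01 and 0.05 TPM. PTPRC, the general leukocyte marker, was at 0.11 and 0.03 TPM. Of the 5 fibroblast markers, LUM was at 24.3 and 20.9 TPM and DCN at 12.9 and 4.86 TPM, whereas COL1A2 was at 0.29 and 0.33 TPM. The part of these markers in the host gene values was not tested.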

How the data were processed

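Total RNA of 22Rv1 cells was extracted with Trizol and sequenced from an Illumina TruSeq RNA kit, per the labels' protocols, with 1 library each for shCON and shEIF3F. The authors deposited TPM values per gene symbol, with 2 decimals. Per the submitters' processing notes, CASAVA, HISAT2 and hg19 were used. For the counter, annotation, strand use and filters, nothing is given in the sources used here. Columns were matched to samples by their descriptions.

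Of 58884 entries, 27 with symbols turned into dates were left out, repeated symbols were summed, and 6073 small RNA symbols were kept out of the background of 13302 genes averaging at least 1 TPM (measured genes). Each host gene had a single entry. The log2 ratio used a pseudocount of 1 TPM; with 1 sample per group no test was run. Depth is unknown. Names were matched through gene IDs to GENCODE release 29, whose longest transcript gave each gene's GC content, and to RefSeq (GRCh38.p14). Both differ from hg19, so they gave names, neighbours and sequences only. snoRNAs were assigned by position inside a host, on its strand in GENCODE and without strand in RefSeq. Other long noncoding RNA genes are those of GENCODE's noncoding types outside the host set.

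The values of some cell type markers are not reported here. The host genes and lists were chosen with earlier results of these data known. All measured host genes are named, and up to 4 per list by size of ratio. Alternatives were pseudocounts of 0.1 and 5 TPM, other minimums, centring, rescaling without the 100 most abundant genes or without ribosomal protein and mitochondrial genes, the largest entry per symbol and small RNAs kept. After the data were seen, GC trend removal (20 bins), sets without GAS5 or without shared exons, transcript starts from GENCODE, TATAA and classes by shCON level were added. A value within 1.5-fold of that as deposited counted as unmoved. Python 3.11.15, NumPy 2.4.6, pandas 2.3.3, SciPy 1.17.1 and matplotlib 3.10.9 were used, and the calculations were tested on simulated data.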

Additional observations from a re-analysis of the deposited data

How the results depend on the processing

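The count of host genes at least 2-fold higher was 4 as deposited and 8 after centring, 8 after rescaling without the 100 most abundant genes and 8 after rescaling without ribosomal protein and mitochondrial genes. The count at least 2-fold lower was 6 as deposited, 2 under each of those settings, 3 with a pseudocount of 5 TPM and 3 with the GC trend removed. With the GC trend removed, 6 of the 26 host genes were at least 2-fold higher. Over all 13234 genes with a GC value, 1776 were then higher and 1834 lower. Among the 1311 other long noncoding RNA genes, 338 were then higher and 143 lower. After centring, 14.7% of all genes were higher and 16.0% lower, and 356 and 163 of the 1311 other long noncoding RNA genes. Shares over all genes are not given here for the rescalings or the other pseudocounts. Centring shifts every ratio by 0.36 by construction. The rescalings also raise the ratios, by an amount that the pseudocount makes smaller at low levels. GAS5 went from 1.81 to 2.24 and 2.26 under the 2 rescalings, and SNHG21 from -1.36 to -1.14 and -1.12. The cause of the other differences was not tested. The lower genes were SNHG19 and SNHG10 after centring, and SNHG19 and SNHG21 after either rescaling. ZFAS1, GAS5, DANCR and EPB41L4A-AS1 stayed at least 2-fold higher and SNHG19 at least 2-fold lower under all 7 alternatives run on single genes. Of 182 single values under those alternatives, 177 were within 1.5-fold of the value as deposited. None changed the direction of a gene past 2-fold. These tallies were partly fixed in advance. Each host gene had a single entry, so the largest-entry setting could not differ. Centring raises every ratio by the same amount, which is less than 1.5-fold. Neither centring nor the rescalings, which only raised ratios, could bring a higher gene under 2-fold. With the GC trend removed, SNHG7 was at 0.91 and SNHG25 at 0.24, both below 0 as deposited. The median log2 ratio stayed above 0, from 0.0087 without GAS5 to 0.49. No paired analysis was possible because each group has 1 library. TPM without read numbers gives no limit of detection, so genes near 1 TPM, such as SNHG21 and SNHG26, are the least certain.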

Other observations

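Protein-coding genes that hold a snoRNA by position were counted over the whole table, a comparison added after the data were seen. Among 204 such measured genes, 24 were at least 2-fold higher and 50 lower, with a median log2 ratio of -0.22, whereas the 11117 that hold none had 732 higher, 2932 lower and a median of -0.40. Most of that distance lay in ribosomal protein genes: the 29 that hold a snoRNA had a median of 0.91 and the 50 that hold none 0.63, while the 175 other protein-coding hosts had a median of -0.47, with 12 higher and 50 lower. The 26 noncoding hosts, with a median of 0.082, thus lay between the ribosomal protein hosts and the other protein-coding hosts. Reads of ribosomal protein genes may be shared with pseudogenes, and the part of this in their medians was not tested.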
